A study of Porphyridium purpureum with 12 samples.

Results

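A set of 4 glycosyltransferase genes of the red microalga Porphyridium purpureum is described here, chosen by identifier with earlier results of these data known. The genes are POR0528 of family GT23, POR4449 of family GT10, and POR8262 and POR5523 of family GT2. They are 4 of the 9898 genes in the count matrix and 4 of the 63 genes that the study's genome annotation lists as glycosyltransferases. The families come from that annotation, and no sequence or coordinate was used here to check them. RNA was sequenced from strain 1380/1A grown in photobioreactors in modified Provasoli medium under continuous light, at residual nitrate of 1.5 g/L (NR, nitrogen replete), 0.6 g/L (NL1) and 0.5 g/L (NL2, both nitrogen limited) and 0.3 g/L (LND, late-stage nitrogen depletion, labelled ND). Each condition had 3 libraries, which the labels describe as technical replicates of one biological sample, so p-values measure the spread between these libraries and not between cultures. Nitrate was consumed over time, and its level cannot be told apart from culture age.

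Glycosyltransferases move a sugar from an activated donor onto an acceptor. GT10 and GT23 are fucosyltransferase families, which use GDP-fucose, itself made from GDP-mannose. In animals, GT10 enzymes attach fucose through alpha-1,3 or alpha-1,4 bonds, whereas the GT23 enzyme FUT8 attaches it through an alpha-1,6 bond to the innermost N-acetylglucosamine of N-glycans. GT2 is a large inverting family that holds cellulose and chitin synthases as well as enzymes that load a single sugar onto dolichyl phosphate. Red microalgae of this genus release a sulfated polysaccharide and carry N-glycans. What these 4 proteins glycosylate was not measured here.

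Library totals ranged from 6398926 counts in NR replicate 3 to 30556820 in NL2 replicate 2. Levels are CPM, counts per 1000000 of the TMM-scaled library total, and since gene lengths were not used, levels are compared between conditions and never between genes. A gene was called where the adjusted p of edgeR's quasi-likelihood test (Benjamini-Hochberg over all tested genes) was under 0.01 and the log2 fold change (log2FC) was at least 1 in size. In these bulk libraries, fewer expressing cells and less RNA per cell cannot be told apart. NR replicate 3, the shallowest library, stood above the other NR libraries for both GT2 genes, and the results that rest on it are given with and without it. The libraries of many genes did not overlap between conditions: of all tested genes, 49.8% did not for NL1, 52.5% for NL2 and 56.5% for LND when each was set against NR. The share was 50.9% for LND set against NL1, 52.6% against NL2, and 15.2% between NL1 and NL2. With the 6 libraries of NL1 and NL2 pooled as NL, it was 42.2% against NR and 39.5% against LND.

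POR0528, the GT23 fucosyltransferase gene, was higher in both nitrogen-limited conditions than in NR and in LND. Its level was 568, 668 and 533 CPM in the 3 NR libraries. It was 1342, 1295 and 1337 CPM in NL1, and 1414, 1324 and 1555 CPM in NL2. In LND it was 653, 601 and 525 CPM. Every NL library was above every NR and LND library, whereas the NR and LND libraries overlapped. The means were 589 ± 69.9, 1325 ± 25.9, 1431 ± 116 and 593 ± 64.2 CPM in NR, NL1, NL2 and LND (SD, n = 3 each).

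**Figure D1:**
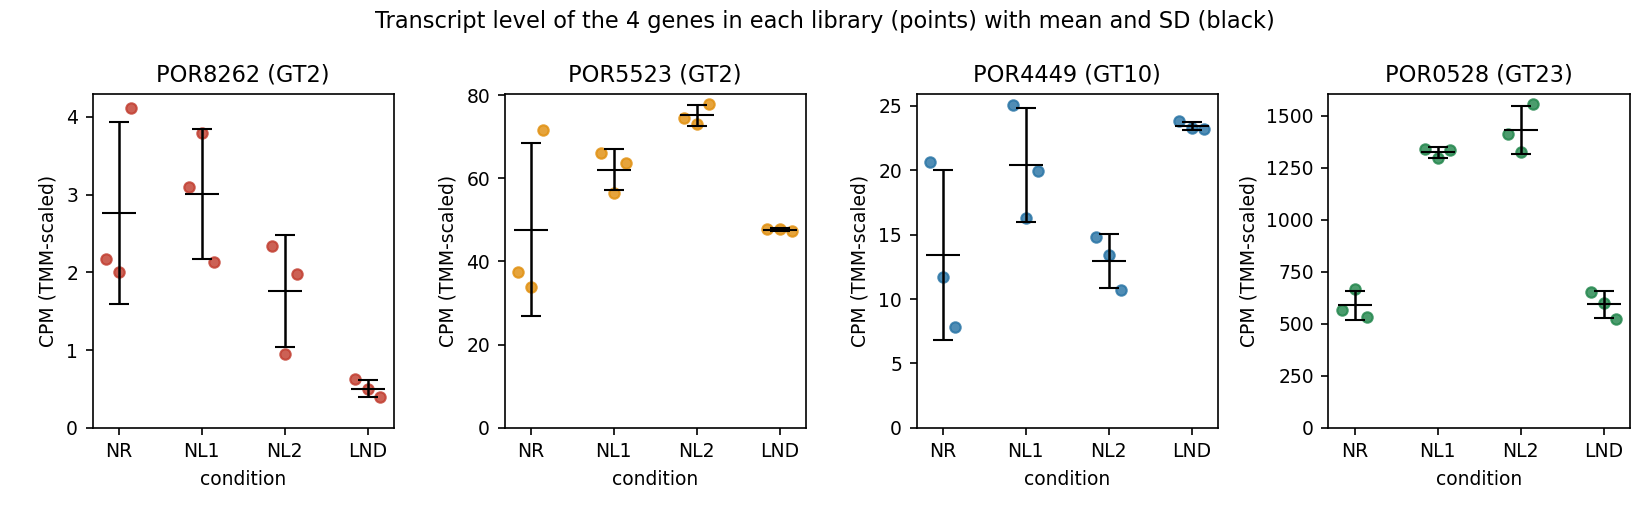
TMM-scaled CPM (linear axes from 0, a separate scale for each gene) in each of the 3 libraries of NR, NL1, NL2 and LND (points) with the mean and SD (black). The 6 NL libraries of POR0528 sit between 1295 and 1555 CPM, above all NR and LND libraries, and the 3 LND libraries of POR8262 sit between 0.392 and 0.623 CPM, below every other library.

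The log2FC of POR0528 was 1.17 ± 0.16 (SE) in NL1 vs. NR, with an adjusted p of 0.00063 by edgeR's quasi-likelihood test. In NL2 vs. NR it was 1.27 ± 0.15 (adjusted p = 0.00021, same test). Of all genes tested in NL1 vs. NR, 14.5% were called, 6.55% as higher. The corresponding shares for NL2 vs. NR were 16.4% and 7.33%. POR0528 was the only one of the 4 genes called in either comparison. The contrast of both NL conditions against NR gave 1.22 ± 0.12, a 2.34-fold higher level (adjusted p = 8.1e-07), beside 18.6% of genes called and 8.28% called higher.

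The later step was of similar size and opposite sign. POR0528 was lower in LND than in NL1 by a log2FC of -1.16 ± 0.12 (adjusted p = 2.7e-06, edgeR's quasi-likelihood test). It was lower in LND than in NL2 by -1.27 ± 0.10 (adjusted p = 4.8e-08). Of all genes tested, 12.3% were called in LND vs. NL1 and 13.5% in LND vs. NL2, with 5.75% and 6.52% in the lower direction. Between LND and NR the log2FC was -0.056, with a 95% interval from -0.41 to 0.29, and no difference was called. These comparisons share the NL libraries, so the rise and the fall are not independent measurements.

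POR0528 drew the most counts of the 63 glycosyltransferase genes, and its share of their counts followed the same course. It took 10.9% ± 1.37 of the counts of the 63 genes in NR and 9.56% ± 0.579 in LND, against 22.4% ± 1.15 in NL1 and 22.2% ± 0.773 in NL2 (SD, n = 3 each). The share does not depend on how libraries are scaled, and the NL libraries, from 21.3% to 23.5%, did not overlap those of NR and LND, from 8.95% to 12.4%. Of the 61 listed genes with enough counts to test, POR0528 had the 4th highest log2FC in NL1 vs. NR and the 6th highest in NL2 vs. NR. It was also the 8th lowest in both LND vs. NL1 and LND vs. NL2. The study itself named POR0528 as differentially expressed in these libraries, which is not independent evidence of its direction. Its text gives GT23 as downregulated in LND vs. NL and does not name it among those upregulated in NL vs. NR.

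POR3389, the other GT23 gene of the list, did not follow it. POR3389 stood at 15.7, 18.1 and 22.5 CPM in NR, at 10.8, 12.7 and 14.4 CPM in NL1, while NL2 had 15.7, 16.3 and 15.6 CPM. In LND it stood at 8.10, 14.1 and 12.4 CPM. All NL1 libraries were below all NR libraries, the reverse of POR0528, although no comparison of POR3389 was called. Its log2FC was -0.56 ± 0.25 in NL1 vs. NR, and that for NL2 vs. NR was -0.24 ± 0.23 (adjusted p = 0.12 and 0.44, edgeR's quasi-likelihood test).

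The relation of the GT23 pair was measured within each library, as the ratio of the counts of POR0528 to those of POR3389. The ratio was 36.2, 36.9 and 23.6 in NR, rising to 124, 102 and 92.9 in NL1. It was 89.8, 81.2 and 99.2 for NL2, whereas LND had 80.3, 42.5 and 42.4. The 6 NL ratios were all above the 3 NR ratios, with a mean difference of 1.62 on the log2 scale. The exact two-sided permutation test over libraries gave p = 0.0238, the smallest that 6 against 3 libraries allow, and 0.0714 after Benjamini-Hochberg adjustment over the 6 ratio tests made. The LND ratios were all below the NL ratios, by 0.89 on the log2 scale, again with the smallest possible exact permutation p of 0.0238 (adjusted 0.0714). LND replicate 1, at 80.3, lay just under the lowest NL ratio of 81.2.

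**Figure D2:**
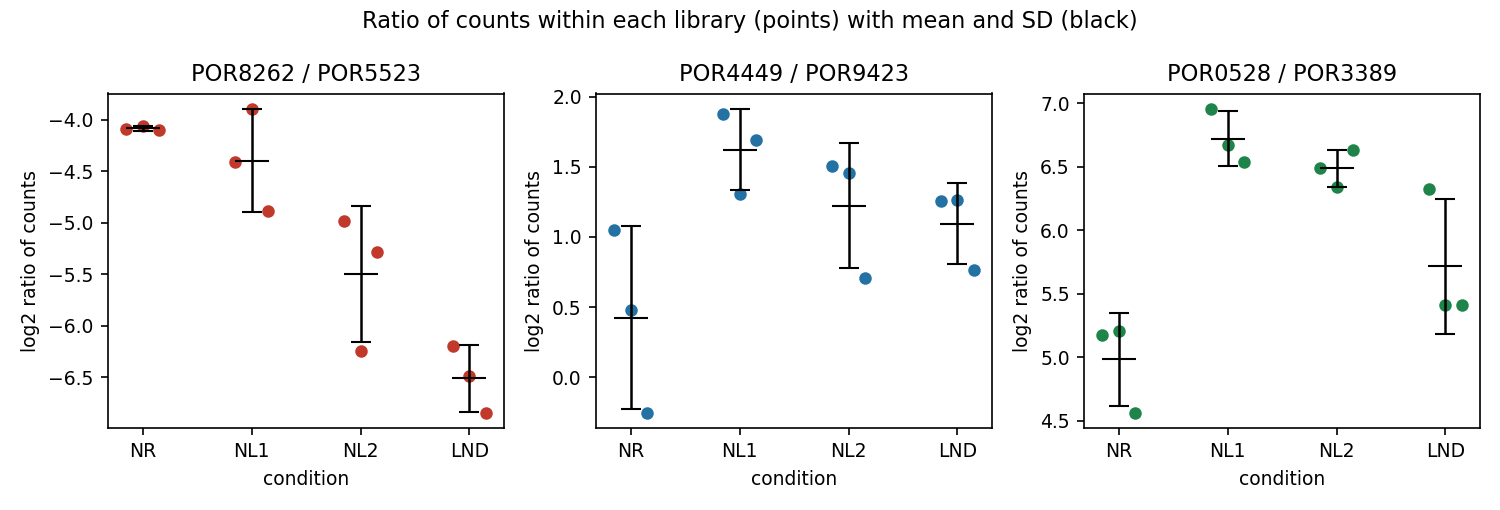
Ratio of counts between 2 genes within each library (points, log2 axis) with the mean and SD over 3 libraries (black), for POR8262 over POR5523, POR4449 over POR9423 and POR0528 over POR3389. The GT23 ratio lies from 81.2 to 124 on the linear scale in the NL libraries and from 23.6 to 36.9 in NR, and the GT2 ratio falls from 0.0584 to 0.0601 in NR down to 0.00872 to 0.0137 in LND.

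POR4449, one of a pair of GT10 fucosyltransferase genes, was called in no comparison. Its level was 20.7, 11.7 and 7.81 CPM in NR, 25.1, 16.3 and 19.9 CPM in NL1, 14.8, 13.4 and 10.7 CPM in NL2, with LND at 23.8, 23.3 and 23.2 CPM. The NR libraries overlapped those of NL1 and NL2, and the LND libraries hardly differed among themselves. The order of the means was LND (23.4 ± 0.312 CPM), NL1 (20.4 ± 4.40), NR (13.4 ± 6.60) and NL2 (12.97 ± 2.10), in which LND and NL1 overlapped, as did NL1 and NR, and NR and NL2.

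The clearest difference of POR4449 was between LND and NL2, where all 3 LND libraries were above all 3 NL2 libraries. The log2FC was 0.85 ± 0.19 with an adjusted p of 0.0019 by edgeR's quasi-likelihood test, which passes the p threshold but not the fold threshold. By the p threshold alone 33.0% of all genes passed in this comparison, and the libraries of 52.6% did not overlap. POR4449 had the 4th highest log2FC of the 61 listed genes there. NL2 was also below NL1 in every library, by a log2FC of -0.65 ± 0.22, which did not pass (adjusted p = 0.50). In LND vs. NR the log2FC was 0.72, with a 95% interval from -0.012 to 1.46 (adjusted p = 0.10). It was 1.19 without NR replicate 1 (adjusted p = 0.012) and 0.45 without NR replicate 3 (adjusted p = 0.10), and was called in neither. The study's RT-qPCR, which did not split NL1 from NL2, went the other way, with POR4449 significantly lower in LND than in NL. It also gave POR8262 and POR5523 as significantly lower in LND than in NL, and POR8262 as significantly higher in NL than in NR. The libraries did not show that rise of POR8262. Their log2FC for NL vs. NR was -0.24 ± 0.51 (adjusted p = 0.72, edgeR's quasi-likelihood test) and was not called. It was 0.14 without NR replicate 3. Set against NR separately, NL1 gave 0.15 and NL2 gave -0.64. POR0528 was not assayed, and the differences from RT-qPCR over POR4449 and POR8262 were not resolved here.

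POR9423, the other GT10 gene, was at 9.98, 8.39 and 9.32 CPM in NR, 6.82, 6.59 and 6.16 CPM in NL1, 5.21, 4.88 and 6.54 CPM in NL2, with LND at 9.97, 9.66 and 13.7 CPM. All NL libraries of POR9423 were below all NR and LND libraries. It was called in LND vs. NL2 (log2FC 1.01 ± 0.28, adjusted p = 0.0086, edgeR's quasi-likelihood test), beside 6.96% of genes called higher. In NL vs. NR it was lower by -0.62 ± 0.24 and was not called (adjusted p = 0.040). The count ratio of POR4449 to POR9423 ran from 0.839 to 2.07 in the NR libraries. It ran from 2.47 to 3.66 for NL1 and from 1.63 to 2.84 for NL2, and the LND ratios were between 1.70 and 2.40. NL minus NR came to 0.998 on the log2 scale with overlapping libraries (exact permutation p = 0.0476, adjusted 0.0714), and LND minus NL to -0.33 (exact permutation p = 0.238, adjusted 0.238).

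POR8262, the more lowly counted GT2 gene, fell in LND. Its counts were 45, 28 and 30 in NR, 64, 111 and 61 in NL1, 67, 30 and 40 in NL2, but 11, 8 and 10 in LND. On the CPM scale these were 2.17, 2.01 and 4.11 in NR, 3.10, 3.79 and 2.13 in NL1, 2.34, 0.950 and 1.98 in NL2, but 0.623, 0.502 and 0.392 in LND. All LND libraries lay below every other library, whereas NR, NL1 and NL2 overlapped. A count of the LND mean, 9.67, carries a counting error of 32.2% on its own, and POR8262 ranked 61st of the 63 listed genes by total counts.

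POR8262 was called in LND vs. NL1, with a log2FC of -2.58 ± 0.58, a 5.96-fold lower level (adjusted p = 0.0025, edgeR's quasi-likelihood test). The call was lost without NL1 replicate 2, LND replicate 2 or LND replicate 3, at adjusted p from 0.014 to 0.022 and log2FC from -2.37 to -2.58. In LND vs. NL it was -2.18 ± 0.59 (adjusted p = 0.0077), beside 12.1% of genes called and 5.72% called lower. That call was lost in 7 of the 12 fits that left out one library (those without NL1 replicate 1 or 2, NL2 replicate 1 or 3, or any LND replicate), at adjusted p of up to 0.032, while the log2FC stayed between -2.41 and -2.05. With the replicate number as a block it was -2.18 with an adjusted p of 0.017. In LND vs. NR it was -2.48 ± 0.71, with a 95% interval from -4.06 to -0.90, and missed the threshold (adjusted p = 0.018), in a comparison where 19.7% of all genes were called. Without NR replicate 3 it was -2.12 (adjusted p = 0.020). In LND vs. NL2 it was -1.80 ± 0.67 and missed it too (adjusted p = 0.041). Among the 61 listed genes it was the lowest in LND vs. NL1 and in LND vs. NL, the 2nd lowest in LND vs. NR and the 3rd lowest in LND vs. NL2.

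**Figure D3:**
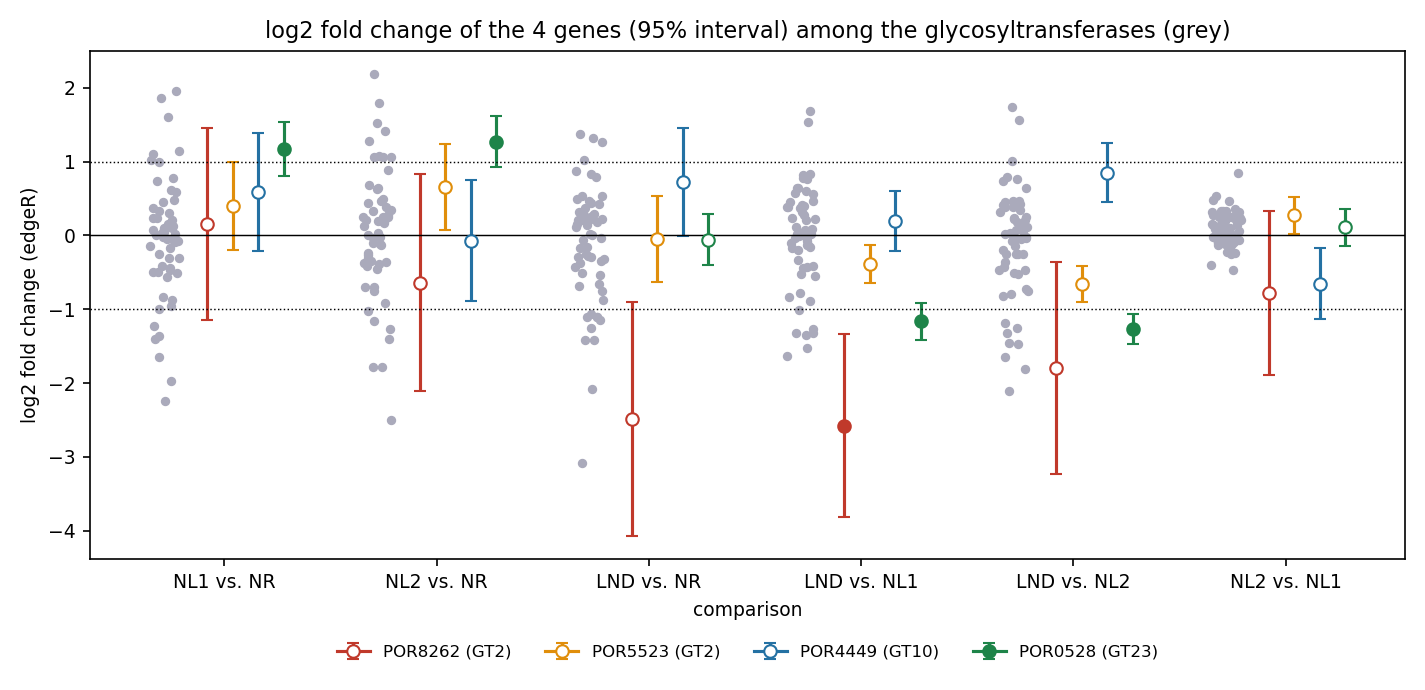
log2 fold changes from edgeR in each of 6 pairwise comparisons for POR8262, POR5523, POR4449 and POR0528 (coloured, bars are 95% intervals, filled where called) and for the other glycosyltransferase genes tested (grey, spread sideways so that points can be seen); dotted lines mark a log2FC of 1 in size. POR0528 is filled at 1.17 and 1.27 against NR and at -1.16 and -1.27 in LND against NL1 and NL2, and POR8262 is filled only in LND vs. NL1, at -2.58.

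POR5523, the other GT2 gene, changed by less than the fold threshold in every comparison. Its level was 37.4, 33.98 and 71.6 CPM in NR, 66.1, 56.5 and 63.7 CPM in NL1, 74.5, 73.1 and 77.8 CPM in NL2, with LND at 47.7, 47.9 and 47.3 CPM. The NL2 libraries were above all others, the NL1 libraries were above all LND libraries, and NR replicate 3 lay apart from the other NR libraries among the NL values. Scaled to library totals instead, NR replicate 3 was at 81.6 CPM, above the NL2 libraries at 76.9, 75.5 and 80.6 CPM. The log2FC in LND vs. NL2 was -0.66 ± 0.11, a 1.58-fold lower level whose adjusted p of 0.0002 (edgeR's quasi-likelihood test) passed the p threshold without the fold, as it did for 33.0% of genes. In LND vs. NL1 it was -0.38 ± 0.12 (adjusted p = 0.019).

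Against NR, the result for POR5523 rested on 1 library. In NL2 vs. NR the log2FC was 0.66 ± 0.26 (adjusted p = 0.072) with all libraries, and 1.07 without NR replicate 3, where it was called (adjusted p = 3.7e-05). In NL1 vs. NR it was 0.40 ± 0.27 (adjusted p = 0.28) and 0.80 without that library, which passed the p threshold alone (adjusted p = 0.00097), beside 19.8% of genes past that threshold with all libraries. In LND vs. NR it was -0.050 with a 95% interval from -0.63 to 0.53, and 0.35 without NR replicate 3 (adjusted p = 0.049).

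In LND, POR5523 was at 47.3 to 47.9 CPM, inside its NR range only through NR replicate 3 (71.6 CPM) and above NR replicates 1 and 2 (37.4 and 33.98 CPM). POR8262 was below all its NR libraries. The count ratio of POR8262 to POR5523 was 0.0587, 0.0601 and 0.0584 in NR, although NR replicate 3 was high for both genes. It was 0.0472, 0.0674 and 0.0338 in NL1, 0.0317, 0.0132 and 0.0258 in NL2, but 0.0137, 0.0111 and 0.00872 in LND. LND minus NL was -1.56 on the log2 scale (exact two-sided permutation p = 0.0476, adjusted 0.0714), with the groups overlapping through NL2 replicate 2. NL minus NR was -0.87 (exact permutation p = 0.0952, adjusted 0.114). None of the 6 ratio tests passed 0.05 after adjustment, and 0.0714 was the lowest adjusted value reached.

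The other GT2 genes, POR0357 and POR5159 (which another table of the study gives as GT8), were called in none of the comparisons. POR5159 stood at 26.2, 37.2 and 36.1 CPM in NR, at 35.9, 37.2 and 43.7 CPM in NL1, at 40.5, 43.1 and 54.5 CPM in NL2, whereas LND had 44.6, 36.7 and 34.5 CPM. Its log2FC did not exceed 0.47 in size, reached in NL2 vs. NR (adjusted p = 0.096, edgeR's quasi-likelihood test). POR0357 ran from 13.9 to 15.7 CPM in LND, above all other libraries, and from 6.59 to 12.9 CPM elsewhere, with a log2FC of 0.69 ± 0.22 in LND vs. NL (adjusted p = 0.023).

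POR5523 and POR5159 are consecutive gene models on one contig of an earlier assembly, and the next model on it is POR4276, a GT8 gene (GT8-A); GT8 enzymes include glycogenin in animals and galacturonosyltransferases of plant cell walls. POR4276 ran from 24.5 to 34.8 CPM in NR and from 23.1 to 24.8 CPM in LND, below its 56.7 to 62.1 CPM in NL1 and 68.8 to 82.7 CPM in NL2. It was called higher in NL1 and in NL2 than in NR (log2FC 1.11 ± 0.18 and 1.42 ± 0.18, adjusted p = 0.0016 and 0.00031, edgeR's quasi-likelihood test) and lower in LND than in NL1 and NL2 (-1.33 ± 0.13 and -1.65 ± 0.13). POR5523, which is 2 models away, was not called in those comparisons, and the difference between these genes was not tested.

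Genes of GDP-mannose metabolism were also higher in nitrogen limitation. Phosphomannomutase (PMM, POR7125) and GDP-mannose pyrophosphorylase (GMPP, POR2740) make GDP-mannose, from which GDP-fucose derives, whereas GDP-mannose 3,5-epimerase (GME, POR1248) uses it and turns it towards GDP-galactose in plants, off the route to GDP-fucose. The study chose these genes on the same libraries, so their direction is not independent evidence. All 3 were called higher against NR in both NL conditions, with log2FC from 1.05 to 1.64 and from 1.22 to 1.74 and medians of 1.55 and 1.70, beside medians of 0.0057 and -0.012 over all genes tested.

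In LND the GDP-mannose genes were lower than in nitrogen limitation, by less than their earlier rise. PMM was at 80.9 to 96.9 CPM in LND, above its 52.0 to 65.9 CPM in NR and below its 176 to 181 CPM in NL1 and 188 to 201 CPM in NL2. It was called lower in LND vs. NL1 (-1.004 ± 0.11, adjusted p = 7.5e-06, edgeR's quasi-likelihood test), and PMM and GMPP in LND vs. NL2 (-1.11 ± 0.10 and -1.05 ± 0.11). GME was lower by -0.54 and -0.72, at adjusted p of 0.0015 and 5.9e-06 but short of the fold; 28.8% of genes passed the p threshold alone in LND vs. NL1. None of the 3 was called in LND vs. NR, where their log2FC lay between 0.45 and 0.60 and that of POR0528 was -0.056. On the TMM scale, all LND libraries of each of the 3 genes were above all of its NR libraries. By library totals the libraries overlapped for each gene, with PMM at 56.4 to 75.2 CPM in NR and 69.3 to 80.8 in LND.

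**Figure D4:**
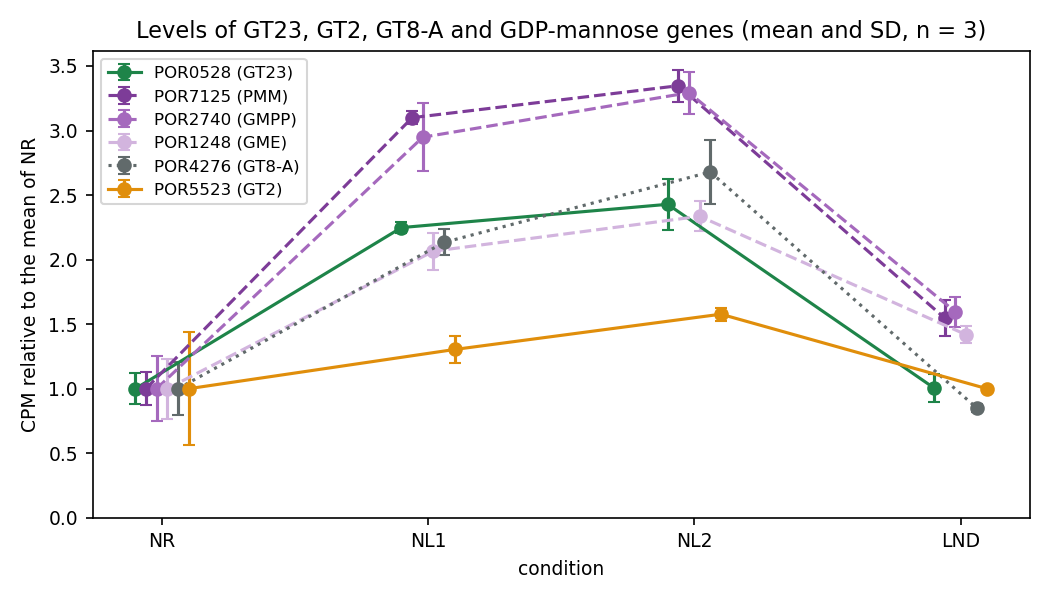
Mean CPM of POR0528 (GT23), POR5523 (GT2), POR4276 (GT8-A) and the GDP-mannose genes PMM, GMPP and GME in each condition, divided by each gene's NR mean (linear axis from 0), with the SD over 3 libraries; lines join conditions in order of falling nitrate. On the TMM scale, POR0528 is about at its NR level again in LND (593 against 589 CPM). PMM stays above its own NR level (80.9 to 96.9 against 52.0 to 65.9 CPM). By library totals, every LND library of POR0528 lies below NR, whereas those of PMM overlap NR.

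N-glycan assembly was covered by 3 genes, also chosen by the study on these libraries: ALG5 (POR6123), which makes dolichyl-phosphate glucose and is itself a GT2 enzyme in yeast and humans, and RPN2 (POR7179) and OSTC (POR5075), subunits of the oligosaccharyltransferase that moves the finished glycan onto protein. RPN2 and OSTC were called higher in NL1 vs. NR (log2FC 1.35 ± 0.28 and 2.09 ± 0.34, adjusted p = 0.0051 and 0.0016, edgeR's quasi-likelihood test), and OSTC in NL2 vs. NR (1.63 ± 0.38). RPN2 was lower in LND vs. NL1 (-1.14 ± 0.23, adjusted p = 0.0011). ALG5 took another course and was called higher only in LND vs. NR (1.36 ± 0.30, adjusted p = 0.0052). POR8262 had a log2FC of -2.48 there but was not called (adjusted p = 0.018, same test), and the difference between these genes was not tested. In NR replicate 3, ALG5 (9.05 CPM) and OSTC (2.47 CPM) lay below NR replicates 1 and 2 (22.9 and 19.6 CPM for ALG5, 5.11 and 4.95 CPM for OSTC). Their results are given with that library only.

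Of the 63 listed glycosyltransferase genes 61 could be tested. In NL1 vs. NR 6 were called higher and 6 lower, beside 6.55% and 7.92% of all genes tested. For NL2 vs. NR the numbers were 8 and 6, beside 7.33% and 9.08%. In LND vs. NL1 2 genes were called higher and 9 lower, where 6.51% and 5.75% of all genes were, and LND vs. NL2 gave 3 and 9, where 6.96% and 6.52% were. LND vs. NR gave 3 and 9 too, beside 7.96% and 11.8%. The balance over all genes depends on scaling: with library totals in place of TMM, 386 genes were called higher and 1588 lower in LND vs. NR (728 and 1078 with TMM), 333 and 1074 for LND vs. NL1 (589 and 520), and 377 and 1073 for LND vs. NL2 (628 and 589). The median log2FC of the list stayed between -0.039 and 0.13 in these comparisons, beside -0.038 to 0.0057 over all genes. Between NL1 and NL2 edgeR's quasi-likelihood test called 0 of 9104 genes, with 827 at an unadjusted p under 0.05 and 2 called by DESeq2. The 4 members had log2FC from -0.78 to 0.27 in NL2 vs. NL1, with POR8262 and POR4449 the lowest and 2nd lowest of the 61.

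Likeness of pattern was measured as Pearson's r of log2 CPM over the 12 libraries, which share 4 conditions, so r mostly reflects the condition means and is a description. For POR0528 the closest listed transferases were POR1493 (GT32, r = 0.96) and POR4276 (GT8, r = 0.95). POR1493 had means of 16.1 CPM in NR and 16.9 in LND, against 48.4 in NL1 and 46.3 in NL2, the same low, high, high, low order. The closest of all genes was POR9017 (r = 0.99), for which no gene name was used here.

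The closest listed transferases of POR5523 were POR9558 (GT4, r = 0.94) and POR5938 (GT28, r = 0.84). POR9558 had means of 125 CPM in NR, then 207 in NL1 and 264 in NL2, with 116 in LND, rising to NL2 as POR5523 did. Those of POR8262 were POR6738 (GT4, r = 0.78) and POR5778 (GT8, r = 0.67), and POR6738 fell from 37.3 to 38.5 CPM in the other condition means to 14.9 in LND. Those of POR4449 were POR6070 (GT20, r = 0.70) and POR0521 (GT4, r = 0.69), lower values than for POR0528 and POR5523. Over the whole table, the 3 closest genes reached r from 0.90 to 0.92 for POR8262, 0.95 to 0.98 for POR5523, 0.90 to 0.91 for POR4449 and 0.98 to 0.99 for POR0528. Among the members themselves r was highest between POR5523 and POR0528 (0.68) and lowest between POR8262 and POR4449 (-0.50).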

How the data were processed

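Stranded, paired-end mRNA libraries were analysed, 3 per condition. The deposited values are raw counts by gene model; the authors aligned reads by STAR 2.7.8a and counted them by featureCounts 2.0.1, with versions as in the submitters' processing notes. The strand setting and the handling of shared reads are not given in the sources used here, so reads of near-identical family members could be split between them. Counts were tested with edgeR 4.0.16 (TMM, filterByExpr with a minimum count of 10, quasi-likelihood F-test) on the 6 libraries of each pairwise comparison; NL vs. NR and LND vs. NL used the mean of NL1 and NL2 in a fit of all 12. SE is the log2FC divided by the root of F. Ratios used counts plus 0.5 and exact two-sided permutation tests (SciPy 1.17.1). DESeq2 1.42.0, other scalings, filters and left-out libraries were alternatives. The edgeR and DESeq2 steps were tested on simulated data. The named genes were the 4 members, their family partners, GDP-mannose and N-glycan genes and a contig neighbour. To these were added the 3 genes (2 transferases) most like each member. Of the 3, at most 1 is printed, by its identifier without a gene name. Members and lists were chosen with earlier results of these data known. The deposited matrix was used whole, and 0 columns lacked a sample.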

Additional observations from a re-analysis of the deposited data

How the results depend on the processing

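Of 488 refits of the 32 log2FC under other settings, 459 kept the direction and the side of the threshold. POR0528 kept each call of nitrogen limitation against NR and against LND. Scaling to library totals shifted the log2FC median over all genes to -0.35 both for LND vs. NR and LND vs. NL1, and turned POR4449 in LND vs. NL1 to -0.12. POR8262 in LND vs. NR was called by DESeq2 (-2.48 in both its tests), with genes having at least 1 count in every library (-2.48) and with all 4 conditions in one fit (-2.42). That fit also gave 0.014 for POR5523 and 0.0087 for POR0528 in LND vs. NR. Library totals gave -0.38 and -0.37 for these genes there (adjusted p = 0.30 and 0.059, edgeR's quasi-likelihood test), and neither was called.

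Samples share only a replicate number: correlations of same-numbered deviations ran from -0.22 to 0.10 over 18 pairs. With the replicate block, POR8262 in LND vs. NL was -2.18 (adjusted p = 0.017, not called by edgeR), POR4449 in NL2 vs. NR 0.035 and POR5523 in LND vs. NR 0.022, and no other call of the members changed.

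Leaving out one library in turn, POR8262 ran from -0.058 to 0.53 in NL1 vs. NR, from -2.75 to -2.37 in LND vs. NL1, from -0.42 to 0.14 in NL vs. NR and from -2.41 to -2.05 in LND vs. NL. POR4449 ran from -0.32 to 0.39 in NL2 vs. NR, POR5523 from 0.47 to 1.07 in NL2 vs. NR and from -0.24 to 0.35 in LND vs. NR, and POR0528 from -0.13 to 0.052 in LND vs. NR. The causes were not tested. Ratio tests with a library left out gave adjusted p from 0.0536 to 0.50, and none passed 0.05, which they could hardly have done. Without an NR or LND library, the smallest possible exact p of the comparisons using it is above 0.05. Without an NL library, nearly all ratio tests would have to reach their smallest possible p. These p-values therefore cannot show whether the ratio differences depend on any library. The mean log2 ratio differences kept their signs throughout. Without the 2 most counted transferases, one of them POR0528, whose own share then has no value, the shares of the other members rose by construction. Depth limits POR8262 most, at 8 to 11 counts per LND library.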
